A study of Mus musculus with 7 samples.

Results

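Antibody chains were read in the terminal ileum by 58 of the 45101 probe sets on the array. These are the probe sets whose platform annotation names a gene with a symbol starting Igha, Ighd, Ighe, Ighg, Ighm, Ighv, Igk or Igl, without Ighmbp2 and Igll1. A probe set is a group of short probes summarised as 1 value. Of the 58, 2 name Iglon5, which meets the rule by its letters only and encodes a neuronal cell adhesion protein, so 56 antibody probe sets remained. None names a delta or an epsilon chain. By annotated gene, 3 read the alpha heavy chain of IgA, 11 the mu heavy chain of IgM and 4 the gamma chain Ighg3. A single set reads the heavy chain variable gene Ighv14-2, and 4 sets are shared between heavy chain genes. The light chains have 29 kappa and 4 lambda sets.

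All 7 mice were male C57BL6J mice killed at 8 weeks of age, weaned at 4 weeks and kept from 6 weeks on diet D12451, with 45% of its energy from fat. The 3 control mice received no antibiotic and the 4 penicillin mice received penicillin at 6.7 mg/L from birth. The labels call the samples biological replicates, and cage and litter were not among the details used here, so a cage or litter difference and penicillin cannot be told apart. The question was how ileal transcription differs after this exposure.

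An antibody is built from paired heavy and light chains. The constant region of the heavy chain sets the isotype (mu for IgM, alpha for IgA, gamma for IgG). The variable regions, joined from V, D and J segments in each B cell, form the antigen binding site and differ between clones. In the gut, plasma cells of the lamina propria make mostly IgA, which is joined by the J chain and carried across the epithelium by the polymeric immunoglobulin receptor. Antibody genes belong to large families of similar segments, and 13 of the 56 sets are annotated to more than 1 gene. The annotation names the same source accession for 19 sets that share 9 accessions, so the sets are not independent readings. A set annotated to Ighm is known only by that symbol here, and which part of the chain its probes read was not examined.

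The 3 sets of the IgA heavy chain and the 4 kappa light chain sets with a mean above log2 10 were lower in every penicillin mouse than in any control mouse, by 1.34-fold to 2.44-fold in the group means. That limit was chosen after the values were seen. In the lambda set with a mean above it, 1430523_s_at, the groups overlapped, with a difference of -0.91 on the log2 scale. None of the 10 tested mu sets had such a mean. Their differences ran from -0.57 to 0.34 on the log2 scale, with -0.48 in the set with the highest mean. The tested gamma set differed by 0.075. None of these differences passed the test across all probe sets. Of the 56 sets, 42 lay above the filter (a mean over the 7 arrays above log2 3.98, the 25th percentile) and were tested together with the other probe sets, 33777 in all. None passed in limma at a Benjamini-Hochberg adjusted p under 0.05 over all probe sets tested, where 0.0592% of all sets passed lower (20 sets) and 0.00296% higher (1 set). The smallest adjusted p of an antibody set was 0.111. At an unadjusted p under 0.05 in limma, 23 of the 42 were lower (54.8%), against 5.19% of all sets tested, and 1 was higher, against 4.61%. The mean was lower in penicillin mice in 33 of the 42, against 50.8% of all sets tested. In 17 of the 42 (40.5%) every penicillin mouse lay below every control mouse, against 4.49% of all sets tested. A single set, of Ighm, had every penicillin mouse above every control mouse, against 3.93%. The median difference, penicillin minus control, was -0.43 on the log2 scale over the 42 sets and -0.25 over all 56, while over all probe sets tested it was -0.0023. In whole tissue, fewer antibody-secreting cells and less antibody RNA per cell cannot be told apart.

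**Figure D1:**
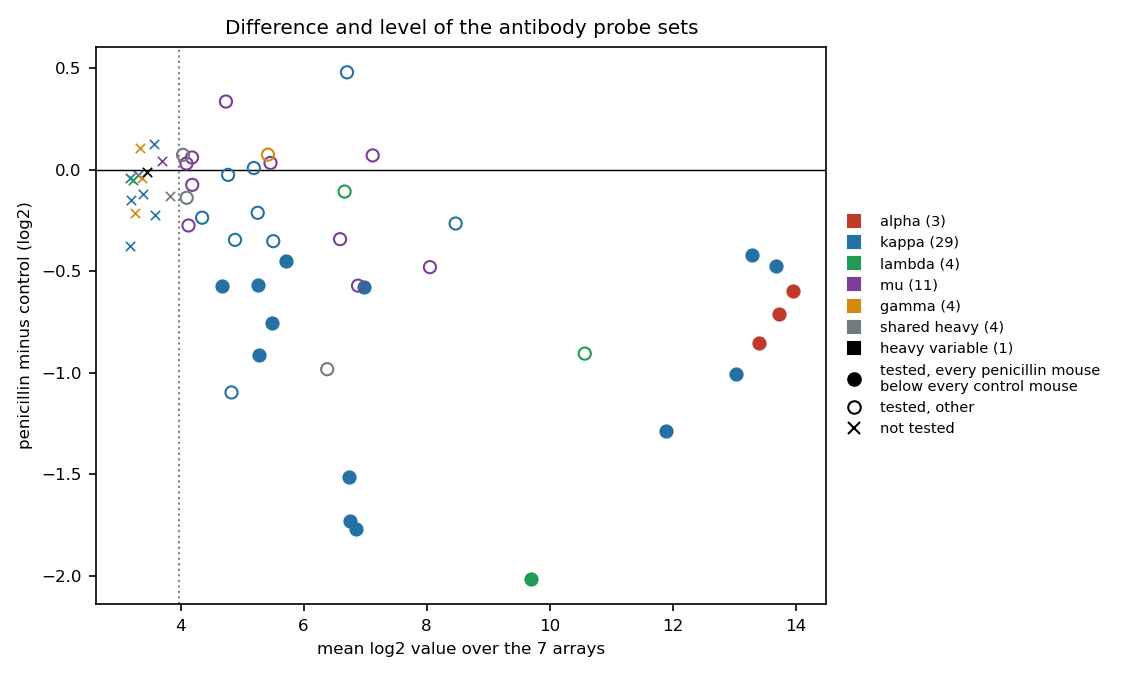
Difference between the groups (penicillin minus control, log2, y axis) against the mean log2 value over the 7 arrays (x axis) for the 56 antibody probe sets, coloured by chain. Filled circles are the 17 sets in which every penicillin mouse lay below every control mouse, open circles are other tested sets, crosses are the 14 sets under the filter, whose limit is the dotted line.

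The alpha chain, the heavy chain of IgA, was read by 3 sets, all annotated to Igha. The set 1421653_a_at had log2 values of 14.28, 14.33 and 14.28 in control mice and 13.73, 13.83, 13.35 and 13.89 in penicillin mice. The control mice lay close together, the penicillin mice were spread more widely, and the groups did not overlap. The difference was -0.60 ± 0.12 (SE, 1.51-fold lower), with an adjusted p of 0.213 in limma. The set 1425763_x_at read 14.11, 14.19 and 14.11 in control mice against 13.43, 13.57, 13.06 and 13.63 in penicillin mice, a difference of -0.71 ± 0.13 (SE, limma adjusted p = 0.175). The set 1429381_x_at read 13.82, 13.98 and 13.85 against 13.05, 13.24, 12.54 and 13.29, a difference of -0.85 ± 0.17 (SE, limma adjusted p = 0.205). In all 3 sets penicillin replicate 3 was the lowest mouse and penicillin replicate 4 the highest of its group. The 3 sets of this gene put the difference between 1.51-fold and 1.81-fold. The highest value on any array was 14.7, and whether signals this close to it were compressed was not tested.

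The kappa light chain, which pairs with most mouse heavy chains, had 29 sets. Of these, 3 list the constant region gene Igkc together with Igkj1, Igkv6-23, Igkv4-53 and Igkv8-30, and so stand for the same 5 genes. The set 1427660_x_at had values of 13.94, 13.94 and 13.96 in control mice and 13.39, 13.63, 13.33 and 13.54 in penicillin mice, a difference of -0.48 ± 0.081 (SE, limma adjusted p = 0.144). The set 1452417_x_at had 13.54, 13.53 and 13.52 against 13.05, 13.24, 13.03 and 13.13, a difference of -0.42 ± 0.065 (SE, limma adjusted p = 0.111). The set 1427455_x_at had 13.53, 13.67 and 13.61 against 12.50, 12.86, 12.17 and 12.87, a difference of -1.00 ± 0.17 (SE, limma adjusted p = 0.141). In none of these sets did a penicillin mouse reach the lowest control mouse. Although they list the same genes, they put the difference between 1.34-fold and 2.01-fold.

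**Figure D2:**
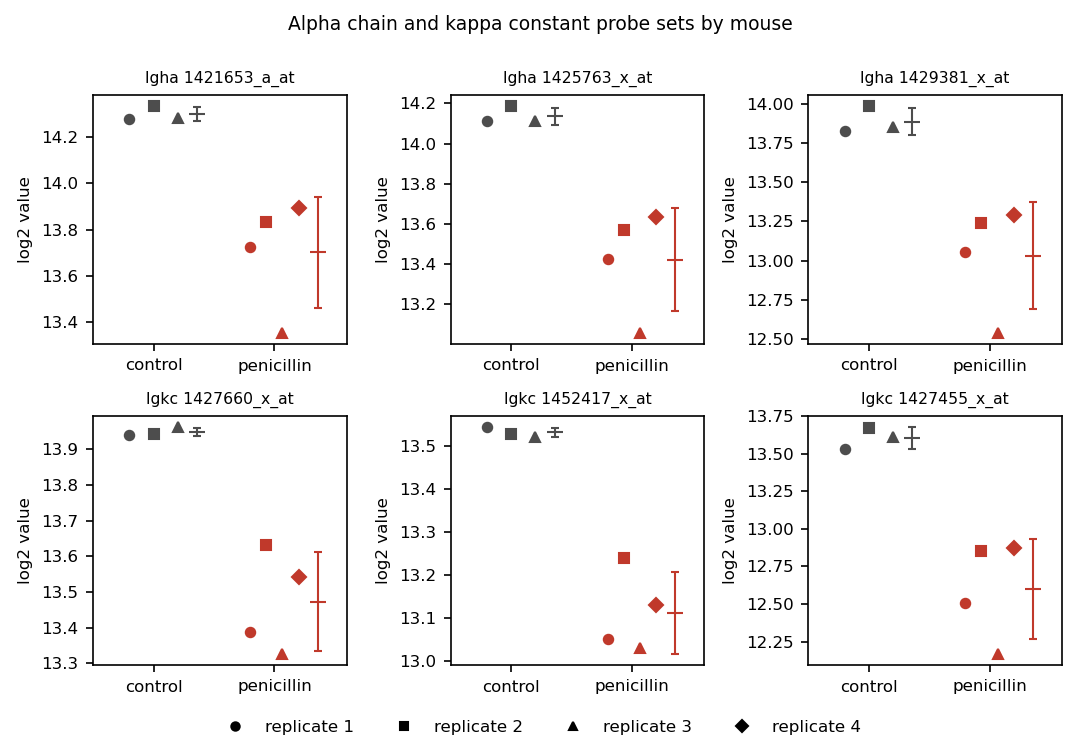
Log2 value (y axis) of the 3 Igha sets and the 3 sets that list Igkc in each mouse, with mean ± SD beside the points and a symbol for each replicate number. Every penicillin mouse lies below every control mouse in all 6 panels, and penicillin replicate 3 is the lowest. The y axes do not start at 0 and differ between panels.

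The other 26 kappa sets read variable genes or the kappa locus without a named segment, and 19 of them were tested. In 17 of the 19 the mean was lower in penicillin mice (50.8% of all probe sets tested), in 12 at an unadjusted p under 0.05 in limma (5.19%), and in 10 the groups did not overlap (4.49%). The strongest signal among them was Igkv8-30, read by 1452463_x_at at 12.52, 12.58 and 12.80 in control mice and at 11.32, 11.55, 10.80 and 11.70 in penicillin mice. Its difference of -1.29 ± 0.20 (SE, 2.44-fold lower) had a limma adjusted p of 0.111. Igkv8-30 is also among the genes of the Igkc sets, so its set and theirs may read some of the same RNA.

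Sets of the Igkv6 family differed in how far apart the groups were. The set 1451965_at, shared by Igkv6-14, Igkv6-23 and Igkv8-19, read 8.45, 7.26 and 7.90 in control mice and 5.51, 6.44, 5.75 and 6.70 in penicillin mice (difference -1.77 ± 0.35, SE, limma adjusted p = 0.203). The set 1427860_at of Igkv6-14 read 7.70, 7.26 and 8.27 against 7.22, 5.34, 5.91 and 5.60 (difference -1.73 ± 0.44, SE, limma adjusted p = 0.333). In that set penicillin replicate 1 lay just under the lowest control mouse, while in the shared set the same mouse was the lowest of all. Igkv6-20, read by 1451962_at, was at 4.87, 5.80 and 5.70 against 4.48, 3.72, 5.43 and 3.80, with penicillin replicate 3 inside the control range.

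Igkv9-120 shows how sets of the same gene can part. Its set 1452536_s_at read 7.53, 7.41 and 7.89 in control mice and 5.53, 7.27, 5.81 and 5.78 in penicillin mice, a difference of -1.52 ± 0.39 (SE, limma adjusted p = 0.340). Penicillin replicate 2 lay close to the controls and the other penicillin mice far below them. Without penicillin replicate 2 the difference was -1.91 and this set passed in limma (adjusted p = 0.00977), the only antibody set to pass under any setting tried. The other tested set of the gene, 1460423_x_at, read 9.22, 8.19 and 8.46 against 8.07, 8.98, 7.79 and 8.60, where the groups overlapped and the difference was -0.26 ± 0.33 (SE, limma adjusted p = 0.779). In that set, too, penicillin replicate 2 was the highest of its group.

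The remaining kappa sets in which no penicillin mouse reached a control mouse read Igkv4-55 with Igkv4-68, Igkv4-68 alone, Igkv4-72, the Igkv6-14, Igkv6-23 and Igkv8-19 group (a further pair of sets) and the kappa locus (1452557_a_at). Their differences were -0.91, -0.75, -0.45, -0.57 for both sets of the pair, and -0.58, in that order, and their limma adjusted p lay between 0.205 and 0.385. The sets that went the other way were 1425738_at, annotated to Igk, and 1451951_at of Igkv14-111. The set 1425738_at read 6.59, 6.12 and 6.58 in control mice and 5.99, 7.59, 6.29 and 7.77 in penicillin mice, a difference of 0.48 ± 0.44 (SE, limma adjusted p = 0.703). Penicillin replicates 2 and 4 were above all control mice, replicate 1 was below all of them and replicate 3 lay between them. Igkv14-111 differed by 0.0088 ± 0.36 (SE), with penicillin replicate 4 at 6.31 and every other mouse between 4.68 and 5.42. Igkv15-103 (1427837_at) varied as much within the groups, at 5.06, 4.69 and 6.38 against 5.30, 4.82, 4.44 and 6.09.

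The lambda light chain, a minor light chain in mice, had 4 sets, 3 of them tested. The set 1424931_s_at, shared by the constant gene Iglc1 and the variable gene Iglv1, had the difference farthest below 0 of all antibody sets. It read 11.27, 10.32 and 10.96 in control mice and 9.43, 8.84, 7.60 and 9.46 in penicillin mice, with no overlap, a difference of -2.02 ± 0.45 (SE, 4.04-fold lower, limma adjusted p = 0.249). The set 1430523_s_at of Iglv1 read 11.48, 10.60 and 11.19 against 11.22, 10.11, 9.57 and 9.84, a difference of -0.91 ± 0.38 (SE, limma adjusted p = 0.503). Here penicillin replicate 1 lay above control replicates 2 and 3, so the groups overlapped. The set 1447918_x_at of Iglv1 read 6.53, 7.01 and 6.65 against 6.77, 6.38, 7.35 and 5.99, and penicillin replicate 3, the lowest mouse in the other tested lambda sets, was the highest here (difference -0.11 ± 0.29, SE). Control replicate 2 was the lowest control mouse in both of the stronger lambda sets.

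The mu chain of IgM, the isotype that naive B cells carry and some plasma cells secrete, was read by 10 tested sets. Their means were lower in penicillin mice in 5 and higher in 5, with a median difference of -0.021. The groups did not overlap downwards in any of them. The set with the highest mean, 1427351_s_at, read 8.42, 8.21 and 8.35 in control mice and 7.80, 8.26, 7.48 and 7.85 in penicillin mice, a difference of -0.48 ± 0.16 (SE, limma adjusted p = 0.451). Only penicillin replicate 2 reached the control range. The set 1427329_a_at read 7.02, 6.52 and 6.82 against 6.42, 6.70, 6.34 and 6.32 (difference -0.34 ± 0.13, SE), again with penicillin replicate 2 inside the control range. The set 1452535_at differed by -0.57 ± 0.38 (SE), with penicillin replicate 3 at 5.64 and every other mouse between 6.64 and 7.70. The set 1425385_a_at went the other way in every mouse, at 4.67, 4.51 and 4.46 in control mice and 4.73, 5.04, 4.73 and 5.03 in penicillin mice, a difference of 0.34 ± 0.10 (SE, limma adjusted p = 0.419). The sets 1427870_x_at, 1425247_a_at, 1427756_x_at and 1425324_x_at differed by between 0.031 and 0.071.

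**Figure D3:**
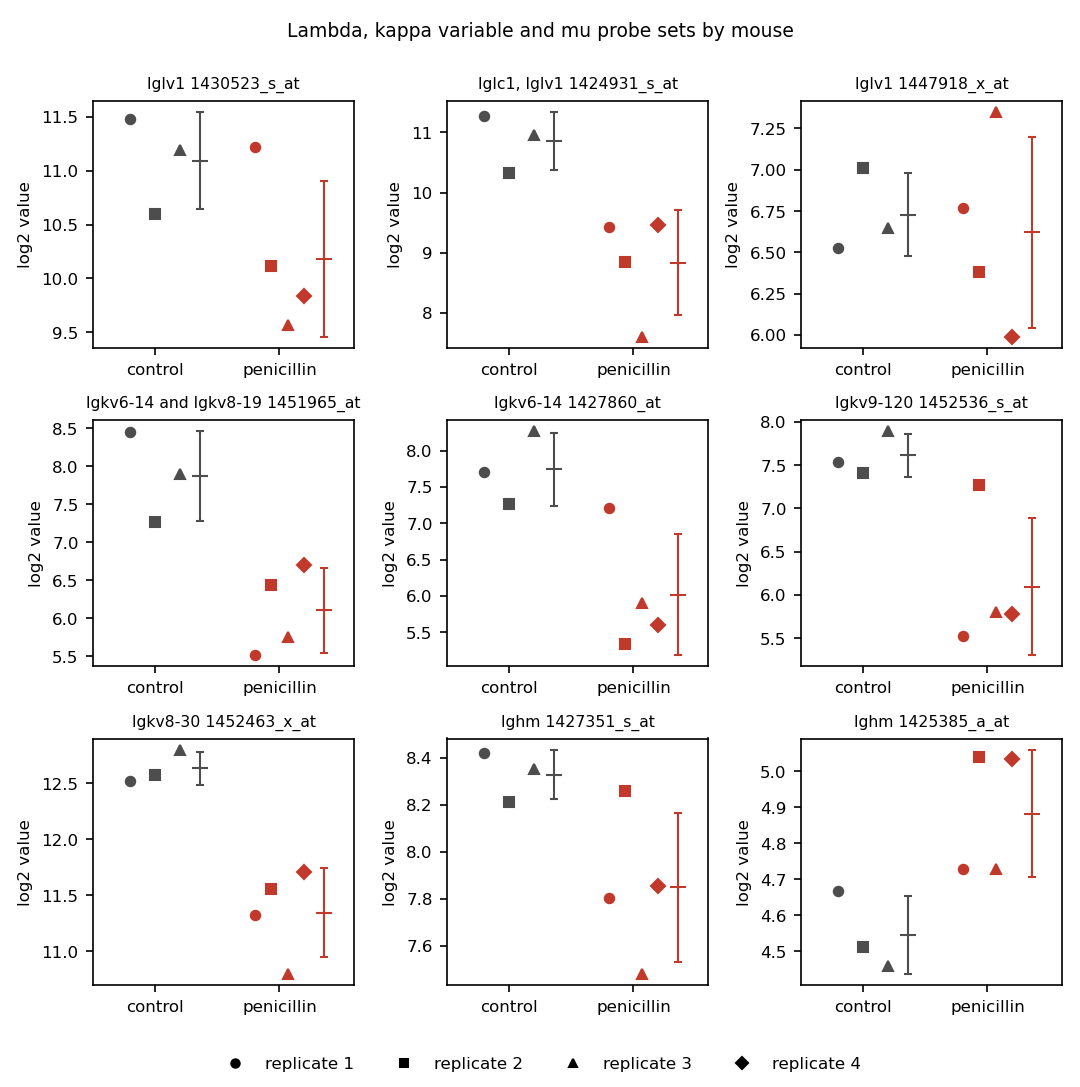
Log2 value (y axis) in each mouse of the 3 tested lambda sets, the 4 kappa variable sets with the largest differences and 2 mu sets, with mean ± SD beside the points. The groups are apart in the Iglc1 and Iglv1 set, in the 4 kappa sets and, upwards, in 1425385_a_at, and overlap in the other panels. The y axes do not start at 0 and differ between panels.

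Among the heavy chain sets shared by several genes, 1427851_x_at of Ighv1-72 and Ighm read 7.51, 6.24 and 7.09 in control mice and 5.41, 6.34, 5.59 and 6.51 in penicillin mice. Control replicate 2 lay below penicillin replicates 2 and 4, and the difference was -0.98 ± 0.36 (SE, limma adjusted p = 0.465). The sets shared by Ighv14-2, Ighg3 and Ighm lay near the filter, and the 2 of them that were tested differed by -0.14 and 0.074.

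The gamma chain Ighg3, the heavy chain of IgG3, was the only gamma gene among the members, and other IgG isotypes are not analysed here. Its tested set, 1427503_at, read 5.25, 5.36 and 5.52 in control mice and 5.64, 5.40, 5.34 and 5.43 in penicillin mice. The groups overlapped throughout, and the difference was 0.075 ± 0.093 (SE, limma adjusted p = 0.780). The other 3 gamma sets stayed under the filter, with all values between 3.00 and 3.50. Ighv14-2 alone, read by 1455530_at, was at 3.46 in all 3 control mice and at 3.46, 3.46, 3.28 and 3.59 in penicillin mice, also under the filter. In all, 14 antibody sets were under the filter, 7 of them kappa, and they differed by -0.38 to 0.13. The deposited values come without detection calls, so whether any of these sets read RNA above background is unknown.

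The 2 Iglon5 sets, which read no antibody chain, were read on the same arrays. The set 1458997_at was at 5.82, 5.90 and 5.92 in control mice and 6.17, 5.97, 5.97 and 5.97 in penicillin mice (difference 0.14 ± 0.069, SE, limma adjusted p = 0.555). In this set every penicillin mouse lay above every control mouse, against 3.93% of all sets tested. The set 1456463_at differed by 0.0096 ± 0.059 (SE), and there the groups overlapped.

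The tested antibody sets were also counted by signal. All 8 antibody sets with a mean above log2 10 (3 alpha, 4 kappa and 1 lambda) had an unadjusted p under 0.05 and lower values in penicillin mice, against 4.14% of all probe sets with such a mean, and in 7 of the 8 the groups did not overlap, against 5.58%. Of all probe sets with such a mean, 48.4% had a lower mean in penicillin mice. Of the 34 tested sets at or under log2 10, 15 were lower at an unadjusted p under 0.05 in limma, against 5.32% of all probe sets with such a mean, and 10 did not overlap, against 4.35%. The limit of log2 10 was chosen after the values were seen.

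**Figure D4:**
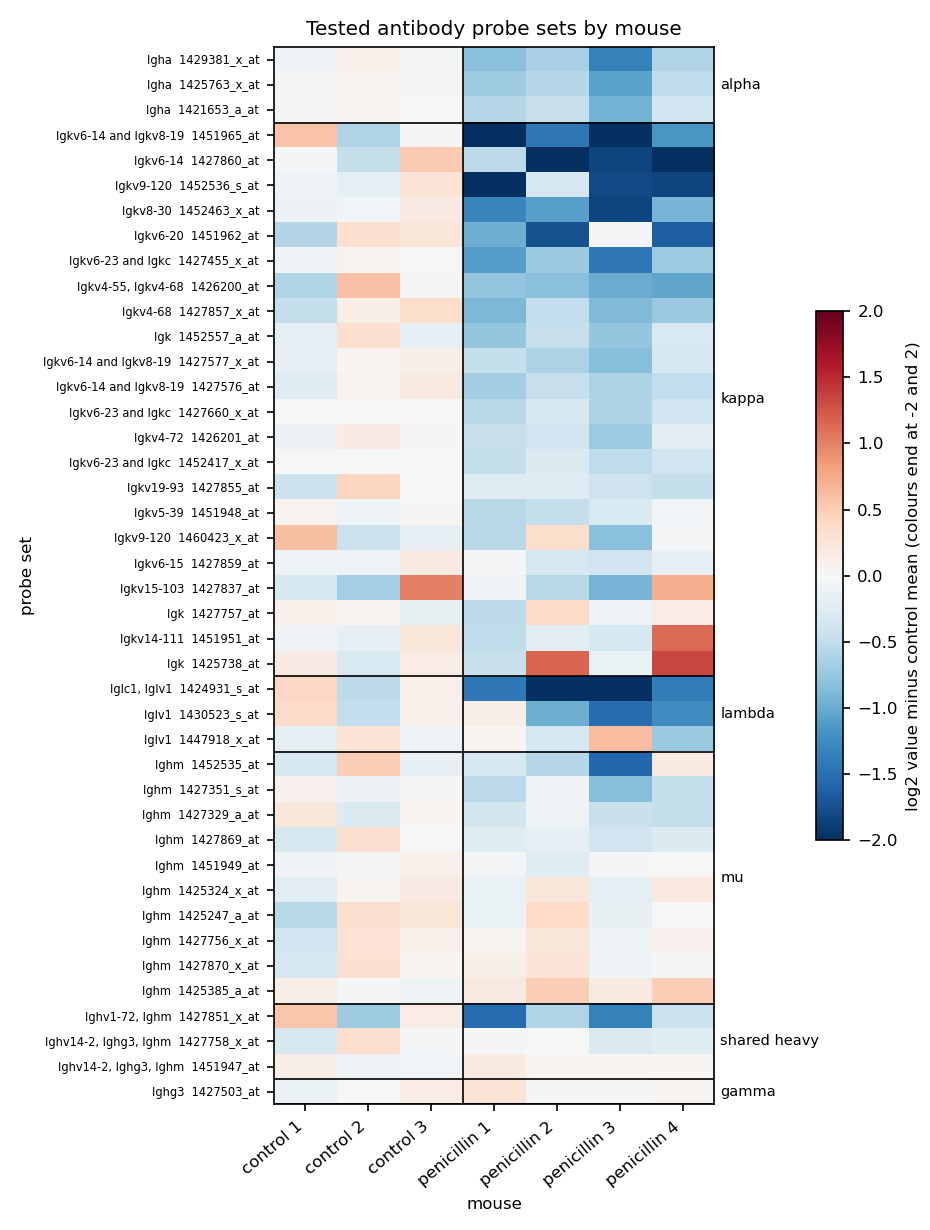
Log2 value minus the control mean (colour, ending at -2 and 2) for the 42 tested antibody sets (y axis, grouped by chain and sorted by difference) in the 7 mice (x axis). The alpha sets are below the control mean in all 4 penicillin mice, most kappa sets are too, and the mu sets lie in both directions.

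Whether the chains differed from each other in their response was compared over the set with the highest mean of each of 5 chains, in 10 pairs. For each mouse the difference between the 2 sets' deviations from their control means was taken. Alpha (1421653_a_at) and kappa (1427660_x_at) differed in response by -0.12, alpha and mu (1427351_s_at) by -0.12, and mu and kappa by -0.0046. Alpha minus gamma (1427503_at) was -0.67 and gamma minus kappa 0.55, and in both pairs the 4 penicillin mice lay apart from the 3 control mice. In an exact two-sided permutation test over the 35 splits of the mice these 2 pairs had p = 0.0571, the smallest that the design allows, and 0.286 after Benjamini-Hochberg adjustment over the 10 pairs. The other pairs had an exact p from 0.114 to 1. For alpha against lambda (1430523_s_at) the penicillin mice lay in both directions, from -0.70 to 0.84. For gamma against lambda all 4 lay above 0, from 0.13 to 1.49, overlapping the control mice. These values hold for the sets named, since sets of the same chain differed from each other. The Igkc set 1427455_x_at was at -1.00 where 1427660_x_at was at -0.48. The tested lambda sets ran from -2.02 to -0.11. Pairs with other sets of a chain were not compared.

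Individual mice of the penicillin group differed. Penicillin replicate 3 was the lowest of the 7 mice in 18 of the 42 tested antibody sets (42.9%), where it was the lowest in 16.4% of all probe sets tested, and in 8 of the 8 sets above log2 10. Over those 8 sets its median deviation from the control mean was -1.21, against -0.64, -0.60 and -0.55 in penicillin replicates 1, 2 and 4. The highest of the 7 mice was a control mouse in 33 of the 42 sets. Control replicates 1, 2 and 3 were the highest in 9, 14 and 10 of them (21.4%, 33.3% and 23.8% of the 42). Over all probe sets tested they were the highest in 13.6%, 15.4% and 23.9%, so for control replicate 3 the shares were alike. Without penicillin replicate 3, Igha (1421653_a_at) differed by -0.48, the Igkc set 1427660_x_at by -0.43 and the Iglc1 and Iglv1 set by -1.61. Over all genes the array of control replicate 3 was the one farthest from the rest, as with Car1, a carbonic anhydrase of colonocytes, at 14.1 there and between 5.11 and 10.8 elsewhere. In the antibody sets above log2 10 its median deviation was -0.0019. Control replicate 3 and penicillin replicate 3 were also both left out. Then 18 sets did not overlap and 16 were lower at an unadjusted p under 0.05 in limma. The median difference over the tested sets was -0.36. Shares over all probe sets are not given for these mice. Groups of fewer mice part more easily, so the count without overlap cannot be set beside that from all 7 mice.

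The genes that accompany antibody secretion were counted from lists, each gene read by its set with the highest mean. Of 23 tested genes of plasma cells and IgA secretion, 12 were lower and 2 higher at an unadjusted p under 0.05 in limma. Of all probe sets tested, 5.19% were lower and 4.61% higher, and with 1 probe set per gene 6.35% were lower. None of the 23 passed at an adjusted p under 0.05 in limma, and the median difference was -0.25. Jchain, the J chain that joins IgA, was at 12.93, 12.93 and 13.00 in control mice and 11.90, 12.16, 11.55 and 12.20 in penicillin mice, with the same lowest and highest penicillin mouse as the Igha sets (difference -1.00 ± 0.15, SE, limma adjusted p = 0.107). Mzb1, which helps to assemble and secrete antibody, was at 8.42, 8.70 and 8.66 against 7.65, 7.68, 7.25 and 7.85 (difference -0.99 ± 0.14, SE, limma adjusted p = 0.0984). Tnfrsf13b and Tnfrsf17, receptors for plasma cell survival factors, differed by -0.57 ± 0.085 and -0.74 ± 0.18 (SE), and Irf4, a transcription factor of plasma cells, by -0.95 ± 0.18 (SE). Pigr, the polymeric immunoglobulin receptor of the epithelium, differed by -0.34 ± 0.071 (SE, limma adjusted p = 0.215). The genes higher at an unadjusted p under 0.05 in limma were Ell2 at 0.32 and Sdc1 at 0.31. Both are also made outside plasma cells, and Pigr, which was lower, is made by the epithelium. Which cells these values came from was not tested. In Prdm1 (-0.26 ± 0.21, SE) and Derl3 (-0.16 ± 0.089, SE) the groups overlapped. Xbp1, which drives the secretory apparatus and is used by other secretory cells too, differed by -0.042.

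**Figure D5:**
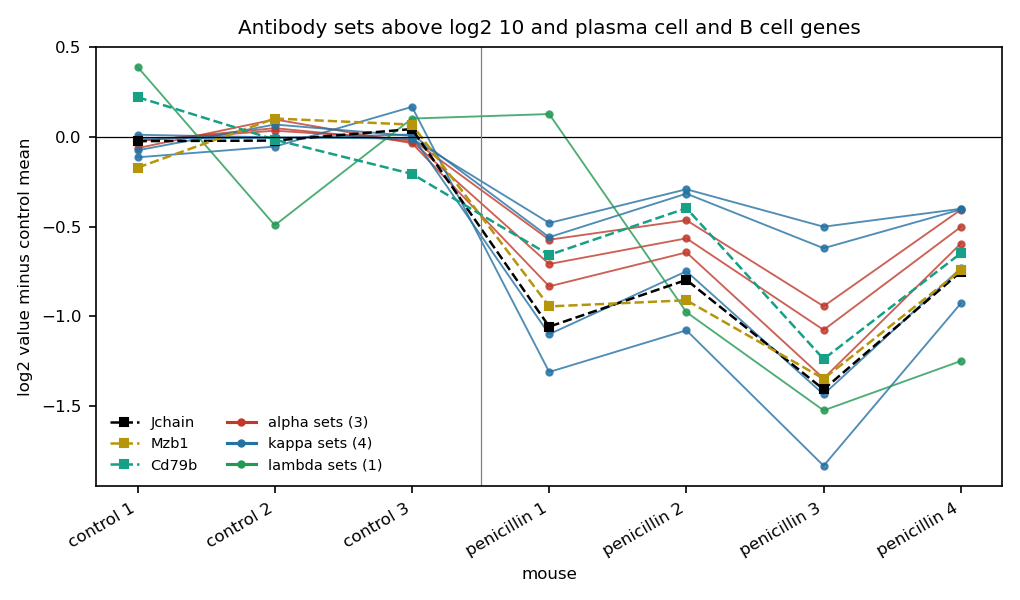
Log2 value minus the control mean (y axis) in each mouse (x axis) for the 8 antibody sets above log2 10 and for Jchain, Mzb1 and Cd79b. Lines only join the points of a probe set, since the mice have no order. All series but the lambda set are below 0 in the 4 penicillin mice, and penicillin replicate 3 is the lowest in each.

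The B cells from which plasma cells arise were read by a further list. Of 15 tested B cell genes, 2 were lower (5.19% of all probe sets tested) and 0 higher (4.61%) at an unadjusted p under 0.05 in limma. None passed after adjustment, and the median difference was -0.15. Cd79b, a signalling chain of the B cell receptor, was at 6.03, 5.79 and 5.60 in control mice and 5.15, 5.41, 4.57 and 5.16 in penicillin mice (difference -0.74 ± 0.19, SE, limma adjusted p = 0.345). Its partner Cd79a differed by -0.22 ± 0.11 (SE), and Ms4a1, the B cell surface protein CD20, by -0.40 ± 0.14 (SE). Both lay near the filter, with means over the 7 arrays of 4.38 for Cd79a and 4.27 for Ms4a1. Another set of Ms4a1, under the filter, differed by -0.045. The mean was lower in penicillin mice in 12 of the 15 genes. It was higher in Blk (0.11), Pax5 (0.067) and Fcrl1 (0.023). The mean level over the list was 5.51 to 5.63 in control mice and 5.24 to 5.46 in penicillin mice.

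Of 8 tested genes of Peyer's patch follicles and germinal centres, where B cells switch to IgA, none had an unadjusted p under 0.05 in limma or passed after adjustment, and the median difference was 0.0055. The mean was lower in penicillin mice in 4 of the 8. Ccl20 differed by -0.44 and Cxcl13, the chemokine that draws B cells into follicles, by -0.13. Madcam1 differed by 0.12 and S1pr2 by 0.10. None of 9 tested genes of IgA switching and survival signals passed after adjustment. At an unadjusted p under 0.05 in limma, 2 were lower (5.19% of all probe sets tested) and 1 was higher (4.61%). These were Tnfsf13b, the B cell survival factor BAFF, at -0.38, Ltb, a lymphotoxin subunit, at -0.34, and Aldh1a1, an enzyme of retinoic acid synthesis, at 0.42. Of 8 tested immunoglobulin receptor genes, 2 were lower (5.19%) and 0 higher (4.61%) at an unadjusted p under 0.05 in limma. The lower genes were Fcgrt at -0.24 and Fcer1g at -0.30, and none of the 8 passed after adjustment. Of the 4 tested genes of B cell precursors, which are not a cell type of the adult ileum, none had an unadjusted p under 0.05 or passed in limma, and their mean level was 4.85 to 4.94 in control mice and 4.81 to 4.90 in penicillin mice.

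Markers of other cells were read in the same samples. Of 9 tested T cell genes 2, and of 13 tested macrophage and dendritic cell genes 6, were lower at an unadjusted p under 0.05 in limma. None passed after adjustment. Over all probe sets tested, 5.19% were lower and 4.61% higher at the unadjusted threshold. The mean T cell level was 5.74 to 5.87 in control mice and 5.39 to 5.63 in penicillin mice, and the macrophage and dendritic cell level 7.46 to 7.78 and 7.13 to 7.52. Of 10 tested enterocyte genes 3 were higher and 0 lower at an unadjusted p under 0.05 in limma, and none passed after adjustment. Their mean level was 11.2 to 12.0 in control mice and 11.9 to 12.5 in penicillin mice. Control replicate 3 was the lowest mouse in all 10 genes and gave the low end of the control range. Smooth muscle genes, with 0 of 6 at an unadjusted p under 0.05 in limma, were at 11.3 to 11.6 and 11.0 to 11.5. The 10 tested Paneth and goblet cell genes (2 lower, 0 higher) were at 13.3 in every control mouse to 1 decimal and at 13.1 to 13.2 in penicillin mice. Colon genes (1 of 7 lower, 0 higher) were at 8.34 to 9.86 and 8.04 to 8.78, with the highest mean in control replicate 3. The part of these cells in the antibody differences was not tested. Fabp6, the ileal bile acid carrier that marks the labelled tissue, was at 14.3 to 14.5 in control mice and 14.4 to 14.6 in penicillin mice.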

How the data were processed

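The log2 values per probe set of an Affymetrix mouse array were deposited by the authors. The submitters' processing notes name RMA and affy. Versions and genome build: not given in the sources used here. RMA evens out the arrays' distributions, so a shift common to most genes would not show. Array medians lay between 5.43 and 5.45. The number of arrays (3 and 4) limits the precision of each value.

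Gene names are those of the 2016 platform annotation, and 27 of the 28 gene IDs of the antibody sets were found in a RefSeq gene table. The 64 manufacturer's controls were left out. Every probe set above the 25th percentile was tested, rather than 1 per gene, because many antibody sets are shared by several genes. The test was limma 3.58.1 in R 4.3.3 (lmFit and eBayes, two-sided), adjusted by Benjamini-Hochberg over 33777 probe sets, and it was checked on simulated data. Levels of different probe sets are not comparable. The p-values measure only the spread between these mice. Alternatives were other normalisations, filters, thresholds and statistics, a replicate block, and single mice left out.

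The text names each chain's set with the highest mean, all alpha and Igkc sets, the 5 largest differences below 0 and the 3 above 0, and Jchain, Pigr, Mzb1, Cd79a, Ms4a1 and Fabp6, and some items are not reported here. From each gene list it takes up to 4 members by the moderated statistic. Other sets and genes were named after their values were seen. The members and the lists were chosen with earlier results of these data known. matplotlib 3.10.9 (Python 3.11.15) drew the plots.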

Additional observations from a re-analysis of the deposited data

Results flagged for a closer look

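In 4 of the 42 tested antibody sets a single mouse of the penicillin group lay apart, with a gap to the next mouse that, as a share of the group's range, was above Dixon's critical value for 4 samples. Chance gives such a gap in about 1 of 20 groups. In Igkv9-120 (1452536_s_at) penicillin replicate 2 was at 7.27 and the others between 5.53 and 5.81 (0.840 of the range). In Igkv14-111 (1451951_at) penicillin replicate 4 was at 6.31 and the others between 4.68 and 4.95 (0.834). In the Ighm set 1451949_at penicillin replicate 2 was at 3.99 and the others at 4.2 (0.847). In the set 1451947_at of Ighv14-2, Ighg3 and Ighm penicillin replicate 1 was at 4.18 and the other penicillin mice shared the value 4.03, so the gap was the whole range (1).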

How the results depend on the processing

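No antibody set passed at an adjusted p under 0.05 in 17 of the 18 alternatives. The exception was 1 set without penicillin replicate 2. The 18 sets followed were compared under each alternative, except that 1 probe set per gene left 7 of them and the filter at the 50th percentile 16. None of these comparisons changed direction, and 1 changed its side of the threshold while 310 did not. Quantile normalising again gave 2 probe sets higher over the whole array, and the unmoderated statistic 0 lower. At an adjusted p threshold of 0.1, 36 were lower and 2 higher. With no filter the median difference over the antibody sets was -0.25. With 1 probe set per gene, 12 genes were lower over the array. Of 15 antibody sets then tested, 9 were lower at an unadjusted p under 0.05 in limma, against 6.35% of all genes tested. In 6 of the 15 the groups did not overlap, and the share over all genes is not given here. With control replicate 3 and penicillin replicate 3 both left out, 0 probe sets were lower and 0 higher. Leaving out each mouse in turn gave 1 to 30 probe sets lower and 0 to 1 higher over the array. The antibody sets called lower were then 0 to 1, and those lower at an unadjusted p under 0.05 in limma were 18 to 22. Of all probe sets tested, 4.04%, 6.72% and 6.05% were so lower without control replicates 1, 2 and 3. The shares without each penicillin mouse are not given here. Antibody sets without overlap were 17 to 21. Their shares over all probe sets are not given here, and groups of fewer mice part more easily. The median difference over the antibody sets was -0.49 to -0.36. The causes were not tested.

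The replicate numbers are shared by the groups in the labels. Mice with the same number deviated from their group means with correlations of -0.103, -0.0069 and -0.367. These gave no sign of pairing, but so few correlations cannot show whether the numbers pair the mice. With the replicate number as a block in limma, 0 probe sets were lower and 0 higher over the array, and 0 antibody sets passed. Of the antibody sets, 23 were lower at an unadjusted p under 0.05 in limma, against 3.24% of all probe sets tested. The median difference over the tested antibody sets was -0.49. Penicillin replicate 4 has no partner and adds nothing to that fit.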
